A study of Mus musculus with 40 samples.

Results

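Mitochondrial and peroxisomal fatty acid oxidation was followed through 40 mouse genes that take a fatty acid from its activation to its oxidation. For each gene the window was its annotated span in the genome build mm10 plus 5 kb upstream. The members were chosen by name and not by a rule on measured values, though with earlier results of these data known. The 40 genes were drawn from 21911 protein-coding genes. A gene entered the tests when at least 3 of the 24 libraries held a peak in its window, which left 39 of the 40 members and 15183 genes in all. The gene left out was Acsl6, which held no peak in any library.

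The study profiled H3K27ac, an acetylated histone tail that marks active promoters and enhancers, by ChIP-seq in primary preadipocytes from the subcutaneous inguinal fat of young adult C57BL/6 mice. Wild-type cells (WT) were compared with Hmgn1-/-Hmgn2-/- cells (DKO), which lack both of the nucleosome-binding proteins HMGN1 and HMGN2 in every cell of the animal. Confluent cells of both genotypes were turned into brown-like adipocytes with insulin, dexamethasone, IBMX, T3 and rosiglitazone, followed by insulin and T3 alone, and the 8 groups were days 0, 3, 6 and 9 of each genotype with 3 libraries each. Day 0 cells were untreated preadipocytes, and all later groups had received the induction mixture, which holds a synthetic PPARγ agonist. By the schedule in the methods, day 3 fell within the induction mixture, and days 6 and 9 after the change to insulin and T3. The methods call the replicates biological. How many animals stood behind a culture was not given in the sources used here.

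Fatty acid oxidation begins when acyl-CoA synthetases attach coenzyme A to a fatty acid. The carnitine shuttle moves long acyl chains into the mitochondrion, where acyl-CoA dehydrogenases, the trifunctional protein and thiolases cut the chain in repeated turns and pass electrons to the respiratory chain through the electron transfer flavoprotein. Peroxisomes shorten very long and branched chains with a related set of enzymes. In brown and beige adipocytes the pathway supplies fuel for heat production, and its genes are known targets of PPAR and ERR nuclear receptors.

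Each library had its own list of peaks, and the measures were the kb of a window under peaks and the best rank of a window's peaks within the list. The lists held 47448 to 115923 peaks over 20.7 to 96.4 Mb of genome. Background reads per kb, recovered from the deposited values as a measure of depth, were 4.50 in WT day 3 replicate 3 and 8.61 to 12.8 in the others. DKO day 0 replicate 2 had a median peak width of 1076 bp against 313 to 376 bp in the others. DKO day 6 replicate 3 had the fewest peaks. Covered length differed between groups and was 57.5 ± 2.60 Mb in WT and 30.8 ± 8.76 Mb in DKO at day 6 (SD, n = 3 each), at 10.7 and 10.6 background reads per kb. The Hmgn2 window held a peak in 12 of 12 WT and in 0 of 12 DKO libraries, while the Hmgn1 window held one in all 24, which checks nothing where the peaks lie outside the deleted part. The cells carried adipocyte marks from day 6 on, since the 6 adipocyte markers summed to 8.40 to 19.1 kb per library at day 0, 37.7 to 55.2 kb at day 6 and 42.5 to 61.8 kb at day 9. Of the 5 brown and beige markers, Ucp1, the brown fat uncoupling protein, held no peak in any library, Ppargc1a and Cox7a1 held one in all 24, and Cidea and Dio2 in 19 each. Their sum was 1.17 to 3.70 kb at day 0 and 2.87 to 5.44 kb at day 9. The 4 macrophage and leukocyte markers summed to 18.5 to 45.2 kb at day 0 and 6.12 to 10.3 kb at day 9, and the 3 endothelial markers to 4.62 to 13.3 kb at day 0.

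Most members were marked at every time. Of the 40 genes, 35 held a peak in all 24 libraries, and 32 held one within 1 kb of an annotated start in all 24. The mean number of members with a peak ran 36.3, 36, 37.7 and 38 in WT and 37, 36, 36.7 and 37.7 in DKO over days 0, 3, 6 and 9. The group means of the genotypes were thus within about 1 gene of each other at each day. The exceptions were Acsl6, with 0 libraries, Acox2 with 4, Acot1 with 8, Acaa1b with 11 and Acot11 with 23.

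**Figure D1:**
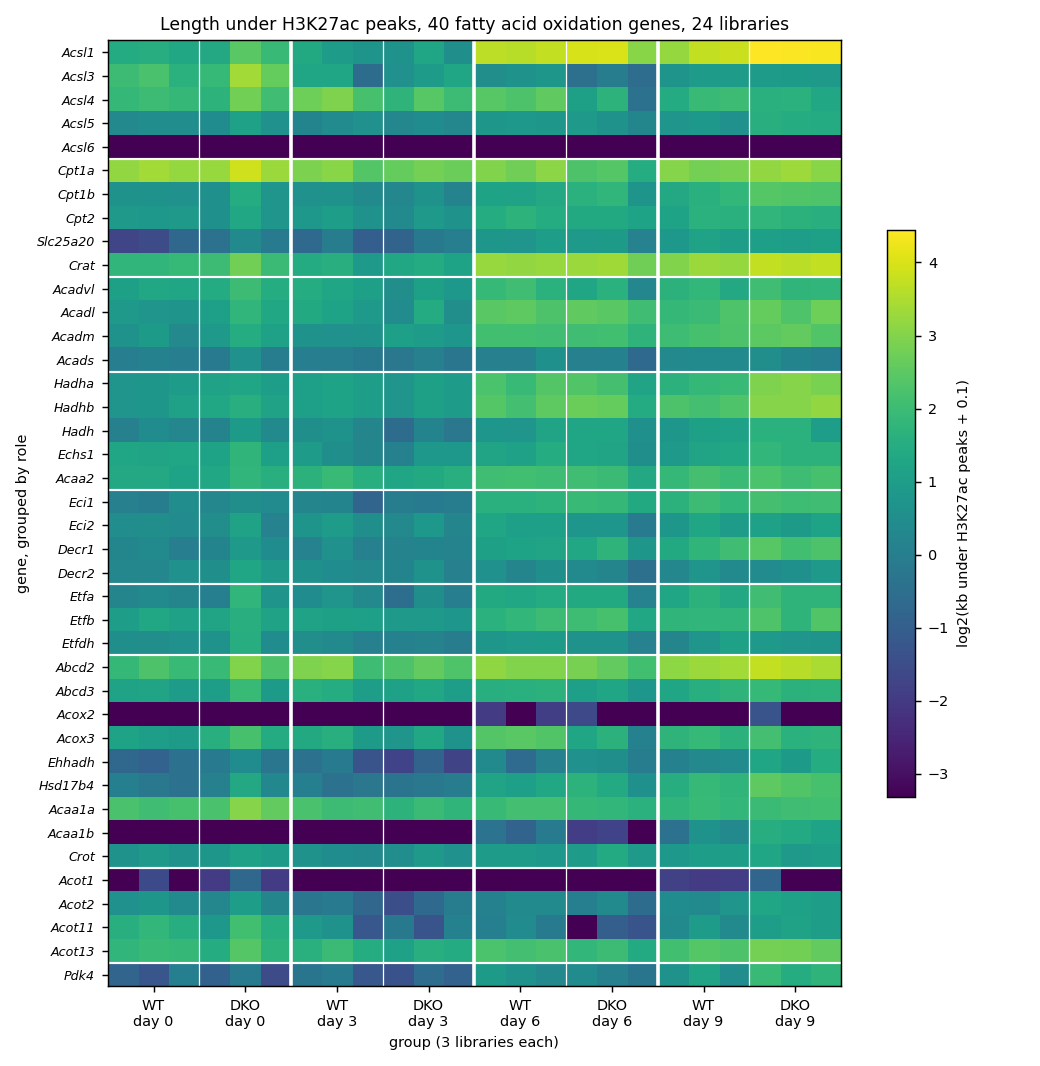
Each row is one member gene, grouped by its role, each column one library in order of day and genotype, and colour gives kb of the gene's window under H3K27ac peaks. Acsl1, Crat and Abcd2 were the most marked rows at day 9 and Acsl6 was empty. The DKO columns of day 9 stood above WT without overlap for 21 of the genes, beside 29.3% of all genes tested. On kb scaled to covered length, which is not drawn, the count was 13, beside 13.4%.

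More of the pathway's sequence was under peaks late in differentiation than at its start. Summed over the 40 members, peaks covered 74.3 to 80.4 kb in the 3 WT libraries of day 0, 58.7 to 83.8 kb at day 3, 123 to 131 kb at day 6 and 111 to 132 kb at day 9. In DKO they covered 76.7 to 136 kb at day 0, 55.3 to 71.9 kb at day 3, 71.9 to 122 kb at day 6 and 168 to 183 kb at day 9. WT thus reached its full length at day 6, and the DKO libraries of day 9 all lay above every WT library. Divided by the covered length of the library, the sum was 1.52 ± 0.0839, 1.70 ± 0.168, 2.21 ± 0.0413 and 2.25 ± 0.0393 kb per Mb in WT and 1.51 ± 0.0979, 1.81 ± 0.0761, 3.4 ± 0.0634 and 2.69 ± 0.0539 kb per Mb in DKO at days 0, 3, 6 and 9 (SD, n = 3). On that scale the 3 DKO libraries stood highest at day 6. In bulk cultures, a larger share of cells with the mark and more mark per cell cannot be told apart.

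**Figure D2:**
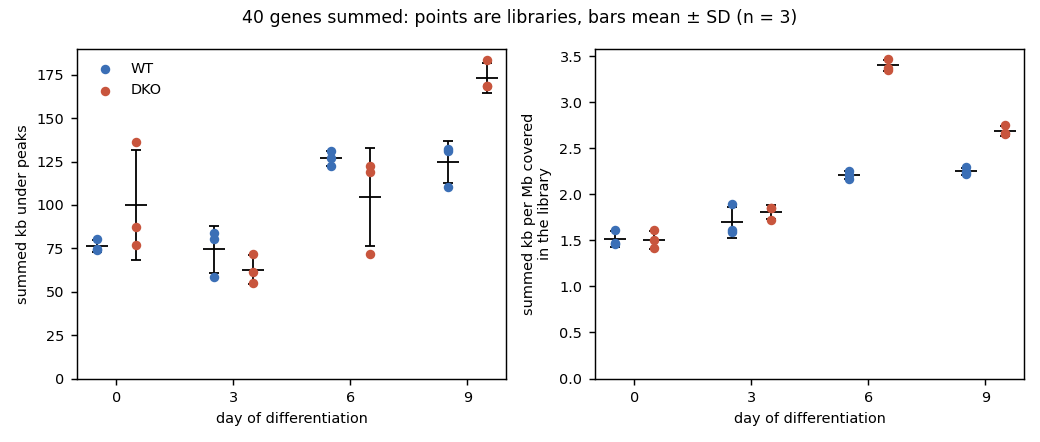
Points are libraries and lines the group means, with days of differentiation on the horizontal axis and, on the vertical axes, kb under peaks summed over the members and the same sum per Mb of covered genome. The DKO libraries of day 9 sat at 168 to 183 kb, above the WT libraries at 111 to 132 kb, and the scaled DKO mean was highest at day 6.

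Between days 0 and 9, 22 of the 39 tested members rose in kb under peaks and 3 fell, in an exact permutation test over the 400 relabellings of day within genotype, two-sided, with Benjamini-Hochberg adjustment over all genes tested. Of all 15183 genes, 16.4% rose and 14.8% fell. The members were 56.4% and 7.69%. Members at the smallest p of that test (0.005) had an adjusted p of 0.0203, while Etfa and Cpt1a had 0.0481 in the same exact test. The carnitine shuttle and the later enzymes of the spiral rose at 4 of 5 genes each, and of the 9 peroxisomal genes 4 rose. The genes that fell were Acsl3, Cpt1a and Acaa1a. The median member gained 0.998 kb in WT and 1.29 kb in DKO, and the median of all genes tested changed by 0.108 and -0.0273 kb. With limma on the log2(kb + 0.1) scale 24 members rose and 2 fell, beside 20.8% and 15.4% of all genes. When each library was held to its 20000 strongest peaks, 9 of the 36 members tested rose and 1, Cpt1a, fell, beside 4.66% and 6.04%. Without DKO day 0 replicate 2, 27 rose and 2 fell, beside 30.9% and 14.5%, and the 5 added were Acadvl, Acads, Eci2, Abcd3 and Acox3. Acox3 went the other way within 2 kb of its start (-0.636 kb, exact permutation test, adjusted p 0.0359). Among the 20000 strongest peaks it changed by -0.798 kb (adjusted p 0.0765 in the same exact test). In sum the adipocyte markers were wider and the leukocyte markers narrower at day 9 than at day 0, as given above. Of the leukocyte markers, Ptprc, Adgre1 and Csf1r were lower without overlap in both genotypes. Cd68 went from 3.36 to 3.34 kb on average in WT, with overlap. The part of either marker list in these counts was not tested.

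The steps between days were read within each genotype, and the step from day 3 to day 6 spanned the change of medium. In WT, 28 members were higher in all 3 libraries of day 6 than in any of day 3, and 0 were lower, beside 34.9% and 2.4% of all genes, and the step from day 6 to 9 gave 3 higher and 3 lower, beside 10.4% and 16%. In DKO, 17 members were higher at day 6 than day 3, and 3 (Acsl3, Acsl4 and Cpt1a) lower, beside 8.25% and 16.1%, and 29 were higher and 0 lower at day 9 than day 6, beside 72.1% and 0.112%. At the first step, 4 members were higher and 8 lower at day 3 than day 0 in WT, beside 7.04% and 23.8%. In DKO 0 were higher and 18 lower, beside 1.24% and 49.7%. The groups of 3 did not overlap in these counts, and with 3 against 3 no exact p can go below 0.1. The counts of DKO from day 0 rest in part on replicate 2 with its wide peaks.

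Genotype over all 4 days gave no member past the threshold in kb. In the exact permutation test with genotype relabelled within day (160000 relabellings, smallest p 1.25e-05), 0 members passed, with a lowest adjusted p of 0.349, and 0.125% of all genes were lower and 0.0263% higher in DKO. limma also called 0 members, beside 5.52% lower and 0.771% higher. At an unadjusted exact p under 0.05, 11 members were higher in DKO, beside 3.95% of all genes, and 1 was lower, beside 5.91%. The 11 were Acsl1, Acsl5, Cpt1b, Crat, Acadm, Hadhb, Eci1, Decr1, Ehhadh, Hsd17b4 and Crot, and the lower one was Acsl4. Scaling each library to its covered length changed this. On the scaled kb, 12 members were higher (Acadl, Crat, Acadm, Decr1, Hadha, Hadhb, Acsl1, Slc25a20, Cpt1b, Ehhadh, Hsd17b4 and Acsl5) and Acsl4 was lower at an adjusted exact p under 0.05, beside 9.19% and 5.7% of all genes. Best rank within the list gave 0 members, with a lowest adjusted p of 0.0691 in the same exact test for Acsl4, beside 0.165% of genes with a stronger and 3.39% with a weaker rank in DKO. At an unadjusted exact p under 0.05, Echs1 and Eci1 ranked higher in DKO, and Acsl4, Acads and Acot11 lower, beside 1.8% and 19.7%.

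Day by day, the genotypes separated in opposite directions. At day 0, 10 members were higher in all 3 DKO libraries than in any WT library and 0 were lower, beside 18.4% and 0.705% of all genes. At day 3 the counts were 1 and 4, beside 0.856% and 10.8%. At day 6, 0 members were higher and 14 lower, beside 0.0856% and 59.6%. At day 9, 21 were higher and 0 lower, beside 29.3% and 2.08%. The median DKO minus WT difference of the members was 0.412, -0.206, -0.381 and 0.755 kb at days 0, 3, 6 and 9, and that of all genes 0.420, -0.183, -0.532 and 0.226 kb. The members were close to all genes at days 0 and 3 and stood above them at day 9. The sum of the 6 adipocyte markers also differed by genotype. At day 6 it was 37.7 to 52.2 kb in DKO and 52.6 to 55.2 kb in WT. Only Lpl separated at that day, with means of 12.6 kb in DKO and 19.5 kb in WT. Adipoq, Fabp4, Plin1, Cidec and Cebpa overlapped at day 6, and Cidec had the higher mean in DKO. At day 9 the sum was 57.7 to 61.8 kb in DKO and 42.5 to 47.5 kb in WT, and all of these markers but Lpl were above WT without overlap. The leukocyte markers held 22.3 to 45.2 kb in DKO and 18.5 to 20.4 kb in WT at day 0. At day 9 they held 8.86 to 10.3 kb in DKO and 6.12 to 7.88 kb in WT. At days 3 and 6 they overlapped, with 12.8 to 18.7 and 4.88 to 9.88 kb in DKO and 9.19 to 15.4 and 8.52 to 9.85 kb in WT. The endothelial markers held 6.07 to 13.3 kb in DKO and 4.62 to 5.75 kb in WT at day 0, and 3.12 to 4.03 against 1.49 to 2.64 kb at day 9. They overlapped at day 3 and were lower in DKO at day 6, at 1.17 to 1.98 against 2.20 to 2.36 kb. The brown and beige markers summed to 4.56 to 5.44 kb in DKO and 2.87 to 4.20 kb in WT at day 9. The 7 preadipocyte and stromal markers summed to 11 to 16.8 kb in DKO and 37.8 to 39.8 kb in WT at day 6. At day 9 they overlapped, at 33.9 to 39.4 kb in DKO and 32.7 to 39.7 kb in WT. These sums were not scaled to covered length, and 91.4% of all genes had a lower DKO mean at day 6 and 77.5% a higher one at day 9. The part of any cell type in the members' differences was not tested.

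The directions of days 0, 3 and 6 turned with the scaling. Per covered length, DKO was higher at 1 member and lower at 5 at day 0, beside 10.9% and 10.6% of all genes, and higher at 3 and lower at 2 at day 3, beside 12.2% and 7.73%. At day 6 it was higher at 29 and lower at 1, Acaa1b, beside 37.8% and 14.4%. At day 9 it was higher at 13 and lower at 3 (Acsl3, Acsl4 and Acads), beside 13.4% and 13.5%. Scaling moved the median log2 difference of all genes from 0.28 to -0.02 at day 0, from -0.19 to 0.07 at day 3, from -0.58 to 0.19 at day 6 and from 0.19 to -0.01 at day 9, and that of the members from -0.27 to 0.62 at day 6 and from 0.35 to 0.12 at day 9. The members that were higher in DKO at day 9 on both scales were Acsl1, Acsl5, Cpt1b, Crat, Hadha, Hadhb, Echs1, Ehhadh, Hsd17b4, Acaa1b, Acot2, Acot13 and Pdk4. limma with an adjusted threshold at single days called 1, 0, 0 and 2 members higher in DKO at days 0, 3, 6 and 9, beside 0.981%, 0.0263%, 0.119% and 0.896% of all genes, and 0, 0, 9 and 0 lower, beside 0.224%, 0.547%, 41.7% and 0.151%. The 2 higher at day 9 were Hadha and Acsl5. After scaling, Hadha passed limma at day 9 with an adjusted p of 0.00633 and Acsl5 did not, at 0.155. By best rank, DKO was stronger without overlap at 1, 2, 2 and 10 members, beside 6.58%, 3.79%, 1.11% and 15.8%, and weaker at 2, 4, 8 and 1, beside 10.3%, 12.3%, 35.8% and 5.27%.

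Single libraries weighed on 3 of these counts. Without DKO day 0 replicate 2, 10 members were higher and 5 lower in DKO at day 0 (Cpt2, Acads, Echs1, Acot2 and Acot13), beside 18.6% and 9.38% of all genes. Without WT day 3 replicate 3, the shallow library, the count of lower members at day 3 was 16, beside 51.5% of all genes. Without DKO day 6 replicate 3, 14 members were lower and 10 higher at day 6, beside 59.8% and 2.12%, and the 10 were Acsl1, Cpt1b, Crat, Hadhb, Hadh, Eci1, Decr1, Etfb, Ehhadh and Hsd17b4. Whether the genotype difference changed with the day was tested on its own. The genotype by day term of limma (F-test, log2(kb + 0.1), Benjamini-Hochberg adjusted) passed for 11 of 39 members, beside 33.7% of all genes. On scaled kb 17 passed, beside 28.1%, and 4 of the 11 were among them (Acaa1b, Hadha, Ehhadh and Slc25a20).

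**Figure D3:**
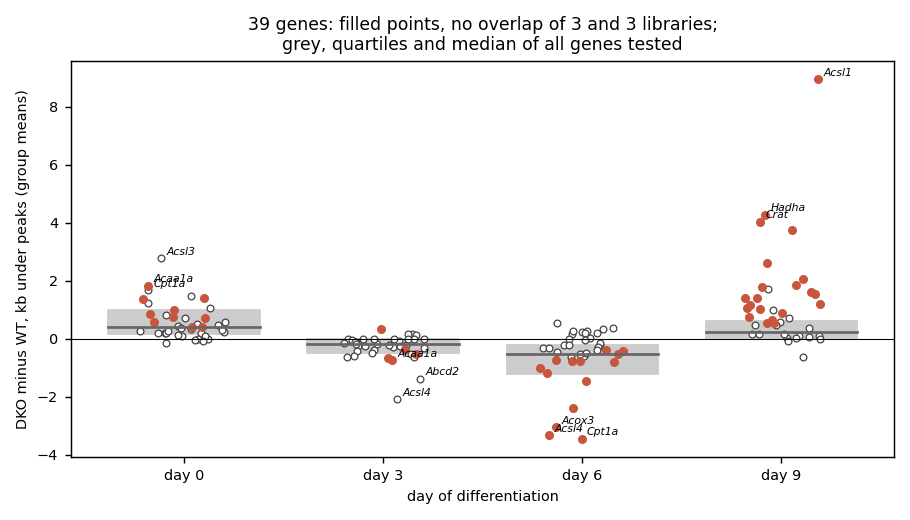
Each point is a member, with its DKO minus WT difference of mean kb under peaks on one axis at each day, beside the median of all genes tested. The member medians ran 0.412, -0.206, -0.381 and 0.755 kb at days 0, 3, 6 and 9 against 0.420, -0.183, -0.532 and 0.226 kb for all genes.

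Acyl-CoA synthetases, which activate long-chain fatty acids, were led by Acsl1, the main isoform of adipocytes (chr8:46471037-46536051, plus strand). WT libraries held 2.66, 2.78 and 2.44 kb on day 0, 2.52, 1.87 and 1.52 on day 3, 12.7, 12.3 and 13.2 on day 6 and 9.18, 13.1 and 14.1 on day 9. DKO libraries held 2.5, 5.36 and 3.72 kb on day 0, 1.49, 2.28 and 1.37 on day 3, 15.6, 15.9 and 8.3 on day 6 and 21.8, 21 and 20.4 on day 9. The day 9 DKO values all lay above those of WT, at a ratio of means of 1.74, and the rise from day 0 was 4.61-fold in WT and 5.46-fold in DKO. Among the 20000 strongest peaks the rise of Acsl1 was 2.87 kb and missed the threshold (exact permutation test, adjusted p 0.0988). Its best peak also ranked higher in DKO at day 9, within the strongest 2.33% to 5.92% of each list against 6.38% to 6.92% in WT. Acsl1 at day 9 differed by 0.82 ± 0.26 (SE) on the log2 scale with a limma adjusted p of 0.187, and by 0.59 ± 0.12 with an adjusted p of 0.0113 after scaling to covered length.

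The other synthetases differed in direction. Acsl4, which prefers arachidonic acid (chrX:142317993-142390535, minus strand), held 3.5, 3.89 and 3.49 kb on day 0, 6.59, 7.67 and 4.46 on day 3, 5.32, 4.77 and 5.73 on day 6 and 2.67, 3.67 and 3.93 on day 9 in WT. In DKO Acsl4 held 3.17, 6.79 and 4.11 kb on day 0, 3.23, 5.28 and 3.95 on day 3, 2.02, 3.15 and 0.655 on day 6 and 2.96, 3 and 2.41 on day 9. At day 6 all DKO libraries were below all WT libraries, with means of 1.94 and 5.27 kb, and this difference of -1.63 ± 0.36 (SE, log2) passed limma with an adjusted p of 0.00216. Scaled to covered length it was -0.74 ± 0.20, with a limma adjusted p of 0.00570, and on the scaled kb the libraries overlapped. Acsl4 had the lowest p of any member in rank and was the only member lower in DKO over the 4 days at an unadjusted exact p under 0.05 (0.0388).

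Acsl3, tied to the endoplasmic reticulum and lipid droplets (chr1:78657825-78707743, plus strand), shares its window with the start of Utp14b. The WT libraries of Acsl3 held 3.88, 4.56 and 3 kb on day 0, 2.27, 2.28 and 0.565 on day 3, 1.34, 1.47 and 1.62 on day 6 and 1.52, 1.81 and 1.88 on day 9. The DKO libraries of Acsl3 held 3.6, 10.1 and 6.01 kb on day 0, 1.42, 1.86 and 2.3 on day 3, 0.636, 0.866 and 0.581 on day 6 and 1.82, 1.78 and 1.73 on day 9. It fell between days 0 and 9 in both genotypes, with no overlap, by 3.44 kb on average. The fall held without DKO day 0 replicate 2 (2.55 kb, exact permutation test, adjusted p 0.0156) but not among the 20000 strongest peaks (adjusted p 0.177 in the same test). Acsl5, whose product lies on mitochondria and endoplasmic reticulum, rose by 0.726 kb between days 0 and 9 (exact permutation test, adjusted p 0.0203). In the same test it missed the threshold among the 20000 strongest peaks (-0.151 kb, adjusted p 0.690) and within 2 kb of its start (0.0612 kb, adjusted p 0.595). Acsl5 held 2.68 to 2.90 kb in DKO and 1.43 to 1.65 kb in WT at day 9. Acsl6, a brain isoform, held 0 kb in all 24.

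The carnitine shuttle showed both directions in its gate. Cpt1a and Cpt1b are the liver and muscle isoforms of carnitine palmitoyltransferase 1, the rate-limiting step of mitochondrial entry. Cpt1a (chr19:3322334-3385733, plus strand) held 9.01, 10.3 and 9.31 kb on day 0, 7.45, 8.32 and 5.12 on day 3, 7.75, 6.7 and 8.51 on day 6 and 8.06, 7.05 and 7.28 on day 9 in WT. In DKO Cpt1a held 9.39, 14.6 and 9.6 kb on day 0, 6, 6.95 and 6.38 on day 3, 4.74, 5.17 and 2.73 on day 6 and 9.11, 9.83 and 8.3 on day 9. It was the widest shuttle gene at day 0 and the only one that fell by day 9, by 2.09 kb on average, and in DKO at day 6 all libraries were below all of WT while at day 9 all were above. Without DKO day 0 replicate 2 the fall of Cpt1a was 1.24 kb and missed the threshold (exact permutation test, adjusted p 0.0609), and within 2 kb of its start it passed (0.667 kb, exact permutation test, adjusted p 0.0359).

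Cpt1b (chr15:89416405-89425863, minus strand) shares its window with the starts of Chkb and 2 other genes. WT Cpt1b held 1.45, 1.49 and 1.41 kb on day 0, 1.43, 1.46 and 1.23 on day 3, 2.16, 2.12 and 2.5 on day 6 and 2.49, 2.98 and 3.41 on day 9. DKO Cpt1b held 1.4, 2.74 and 1.57 kb on day 0, 1.11, 1.46 and 1.01 on day 3, 3.01, 3.38 and 1.52 on day 6 and 5.23, 4.98 and 4.87 on day 9. All day 9 DKO libraries were above those of WT, at a ratio of means of 1.70, and the rise from day 0 was 2.04-fold and 2.64-fold. The peak over its own start, 149 bp into the gene, was called in 0 WT and 1 DKO library of day 0, in none of day 3 and in all 12 of days 6 and 9, while a peak at -3846 bp, at Chkb, was called in all 24. Reads over the shared stretch cannot be assigned to one gene.

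Crat, carnitine acetyltransferase, which buffers acetyl-CoA (chr2:30400471-30415813, minus strand), shares its window with the start of Ptpa. WT Crat held 3.38, 3.4 and 3.56 kb on day 0, 2.62, 2.84 and 1.74 on day 3, 9.41, 8.96 and 9.36 on day 6 and 7.77, 9.69 and 9.18 on day 9. DKO Crat held 3.9, 6.85 and 3.8 kb on day 0, 2.37, 2.67 and 2.19 on day 3, 9.53, 10.1 and 6.7 on day 6 and 13.1, 12.3 and 13.3 on day 9. DKO lay above WT at days 0 and 9 with no overlap, at a day 9 ratio of 1.45. It rose by 6.75 kb between days 0 and 9, second to Acsl1 among the members.

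Cpt2, the inner membrane partner of Cpt1 (chr4:107903981-107923610, minus strand), was narrower than Cpt1a throughout. WT Cpt2 held 1.76, 1.68 and 1.73 kb on day 0, 1.65, 1.96 and 1.45 on day 3, 2.68, 3.14 and 2.73 on day 6 and 2.18, 3.02 and 2.97 on day 9. DKO Cpt2 held 1.4, 2.45 and 1.57 kb on day 0, 1.22, 1.73 and 1.5 on day 3, 2.53, 2.53 and 2.19 on day 6 and 3.36, 3.1 and 2.83 on day 9. It rose 1.58-fold and 1.71-fold, was lower in all DKO libraries at day 6, and overlapped at day 9. At day 9 its best peak ranked weaker in DKO, at 3.60% to 4.16% of the list against 1.65% to 3.06%. Slc25a20, the carnitine-acylcarnitine carrier of the inner membrane, went from 0.206, 0.251 and 0.518 kb at WT day 0 to 1.66, 2.14 and 1.92 kb at day 9. In DKO Slc25a20 held 0.655, 1.215 and 0.847 kb at day 0 and 1.985, 1.911 and 2.03 kb at day 9. It was the member that limma called higher in DKO at day 0 (adjusted p 0.0396, and 0.0162 on scaled kb), and at day 9 the genotypes overlapped.

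**Figure D4:**
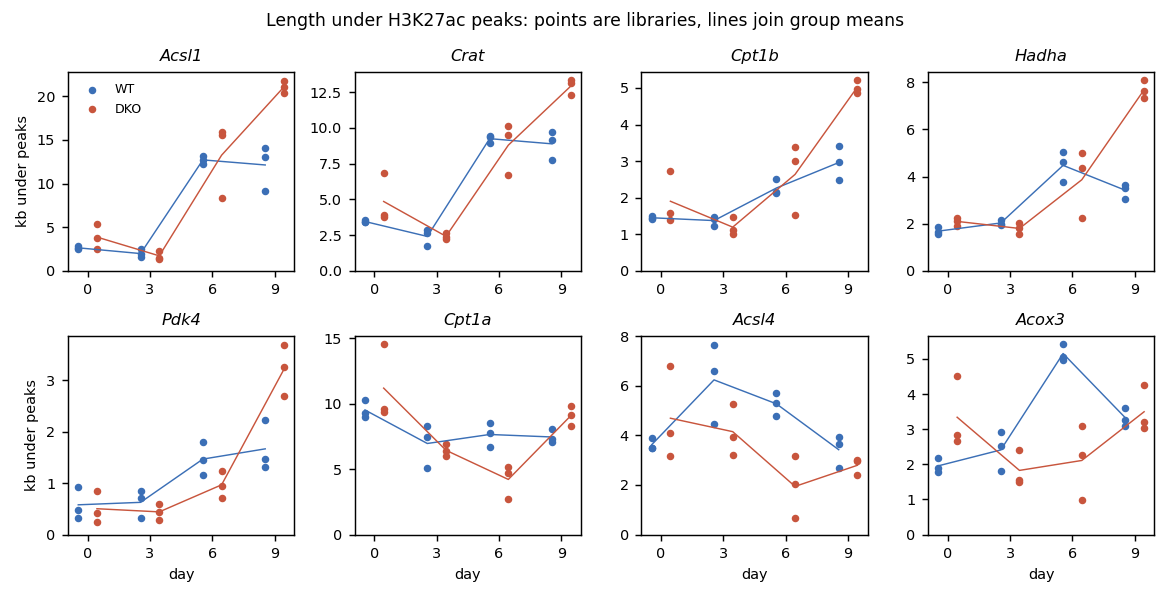
Points are libraries, with days 0, 3, 6 and 9 on the horizontal axis and kb of the gene's window under peaks on the vertical axis, for Acsl1, Crat, Cpt1b, Hadha, Pdk4, Cpt1a, Acsl4 and Acox3 in WT and DKO. The DKO points of day 9 lay above the WT points for Acsl1, Crat, Cpt1b, Hadha, Pdk4 and Cpt1a, and the DKO points of day 6 below them for Cpt1a, Acsl4 and Acox3.

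Of the 4 acyl-CoA dehydrogenases, which open each turn of the spiral for chains of a given length, Acadl and Acadm rose. Acadm, the medium-chain enzyme (chr3:153922357-153944632, minus strand), held 1.45, 1.77 and 1.16 kb on day 0, 1.48, 1.43 and 1.46 on day 3, 4.17, 4.18 and 4.1 on day 6 and 4.01, 4.44 and 4.78 on day 9 in WT. In DKO Acadm held 1.72, 2.71 and 2.1 kb on day 0, 1.97, 1.84 and 1.61 on day 3, 4.05, 4.17 and 3.24 on day 6 and 5.5, 5.84 and 5 on day 9. The rise was 3.02-fold in WT and 2.50-fold in DKO, DKO was above WT at days 3 and 9 with no overlap, and its best peak ranked within the top 1.87% to 3.15% in DKO at day 9 against 3.66% to 5.14% in WT. Acadl, the long-chain enzyme, rose by 2.84 kb. Acads, the short-chain enzyme, stayed between 0.524 and 1.44 kb in all 24 libraries.

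Acadvl, the very-long-chain enzyme (chr11:70010183-70015411, minus strand), shares its window with the start of Dlg4. WT Acadvl held 2.05, 2.39 and 2.27 kb on day 0, 2.71, 2.27 and 1.99 on day 3, 3.6, 4.11 and 3.02 on day 6 and 3.09, 3.41 and 2.49 on day 9. DKO Acadvl held 2.63, 3.92 and 2.72 kb on day 0, 1.33, 2.05 and 1.68 on day 3, 2.29, 2.99 and 1.1 on day 6 and 4.08, 3.28 and 3.38 on day 9. It was above WT in all DKO libraries at day 0 and below at day 6, and its change from day 0 to day 9 of 0.625 kb missed the threshold (exact permutation test, adjusted p 0.113). In the same test Acadvl passed without DKO day 0 replicate 2 (0.833 kb, adjusted p 0.0156) and within 2 kb of its start (0.641 kb, adjusted p 0.0359).

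Hadha and Hadhb encode the subunits of the mitochondrial trifunctional protein and lie head to head on chromosome 5, so their windows share the promoter. Hadha (chr5:30118304-30155162, minus strand) held 1.56, 1.63 and 1.86 kb on day 0, 1.99, 2.17 and 1.92 on day 3, 4.64, 3.75 and 5.04 on day 6 and 3.05, 3.53 and 3.66 on day 9 in WT. In DKO Hadha held 2.13, 2.26 and 1.9 kb on day 0, 1.55, 2.02 and 1.83 on day 3, 5, 4.36 and 2.23 on day 6 and 7.63, 8.11 and 7.32 on day 9. Its day 9 ratio of means was 2.25, followed by 2.03 at Ehhadh among the members with a peak in all 24 libraries. limma gave a day 9 difference of 1.15 ± 0.21 (SE, log2) with an adjusted p of 0.00585, and 0.93 ± 0.18 with an adjusted p of 0.00633 after scaling.

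Hadhb (chr5:30155248-30184593, plus strand) followed its partner. WT Hadhb held 1.56, 1.63 and 2.07 kb on day 0, 1.99, 2.17 and 1.92 on day 3, 5.13, 4.25 and 5.65 on day 6 and 4.77, 4.28 and 4.91 on day 9. DKO Hadhb held 2.42, 2.88 and 2.14 kb on day 0, 1.55, 2.02 and 1.83 on day 3, 6.36, 6.05 and 2.68 on day 6 and 8.11, 8.14 and 8.96 on day 9. At day 3 the pair held identical values, since the peaks of both windows then lay in the stretch they share. It rose 2.66-fold in WT and 3.39-fold in DKO.

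Hadh, the short-chain hydroxyacyl-CoA dehydrogenase (chr3:131233419-131272101, minus strand), held 0.953, 1.28 and 1.11 kb on day 0, 1.35, 1.47 and 1.07 on day 3, 1.59, 1.57 and 2.24 on day 6 and 1.64, 2.04 and 2.1 on day 9 in WT. In DKO Hadh held 1.02, 1.78 and 1.22 kb on day 0, 0.575, 1.04 and 0.75 on day 3, 2.29, 2.31 and 1.4 on day 6 and 3.04, 3 and 1.92 on day 9. It was lower in every DKO library at day 3 and rose by 1.06 kb between days 0 and 9. Acaa2, the last thiolase of the spiral (chr18:74779197-74806208, plus strand), held 2.49, 2.48 and 2.19 kb on day 0, 3.05, 3.72 and 2.87 on day 3, 4.08, 4.18 and 3.97 on day 6 and 3.52, 4.34 and 3.8 on day 9 in WT. In DKO Acaa2 held 2.43, 3.39 and 2.88 kb on day 0, 2.33, 2.56 and 2.8 on day 3, 4.11, 3.83 and 2.5 on day 6 and 4.63, 4.04 and 4.44 on day 9. Its width at day 9 overlapped between genotypes, while its best peak ranked within the top 0.735% to 1.58% in DKO and 3.44% to 7.02% in WT. Echs1, the enoyl-CoA hydratase, whose window holds the start of Paox, was wider in all DKO libraries at day 9 (3.06 to 3.44 kb against 1.76 to 2.39 kb).

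Auxiliary enzymes, which move or reduce double bonds of unsaturated chains, rose at Eci1 (3.33-fold and 3.34-fold in WT and DKO) and Decr1 (3.11-fold and 3.52-fold). Eci2 and Decr2 missed the threshold, with exact permutation adjusted p of 0.0701 and 0.667. Without DKO day 0 replicate 2 Eci2 passed (0.729 kb, adjusted p 0.0156 in the same exact test), as it did on scaled kb (adjusted p 0.0260). Of the electron transfer genes Etfa and Etfb rose, by 1.54 and 1.59 kb, and Etfdh, the link to ubiquinone, changed by -0.0222 kb. Etfa lay above WT in all DKO libraries of day 9 and Etfdh below in those of day 6.

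Peroxisomal genes opened with the transporters. Abcd2, which imports very long chains (chr15:91145871-91191799, minus strand), held 3.49, 4.8 and 3.65 kb on day 0, 7.63, 8.05 and 4 on day 3, 8.76, 7.75 and 7.76 on day 6 and 8.7, 9.64 and 10.2 on day 9 in WT. In DKO Abcd2 held 3.77, 7.83 and 4.78 kb on day 0, 4.81, 5.86 and 4.9 on day 3, 7.08, 5.85 and 4.17 on day 6 and 13.3, 12.1 and 11 on day 9. It was below WT in all DKO libraries at day 6 and above at day 9, and rose by 6.09 kb between days 0 and 9. Its best peak at day 9 ranked within the top 0.912% to 0.968% in DKO and 1.37% to 3.43% in WT. Abcd3, the transporter of branched and dicarboxylic chains, differed by 0.785 kb between days 0 and 9 and missed the threshold (exact permutation test, adjusted p 0.121). Abcd3 passed without DKO day 0 replicate 2 (1.10 kb, adjusted p 0.0156) and on scaled kb (adjusted p 0.0148) in that exact test, and in limma (adjusted p 0.0287).

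Acox3, an oxidase of branched chains (chr5:35583040-35615352, plus strand), held 2.17, 1.9 and 1.79 kb on day 0, 2.52, 2.91 and 1.8 on day 3, 5.05, 5.43 and 4.97 on day 6 and 3.26, 3.6 and 3.1 on day 9 in WT. In DKO Acox3 held 2.85, 4.5 and 2.67 kb on day 0, 1.56, 2.42 and 1.5 on day 3, 2.27, 3.09 and 0.97 on day 6 and 4.26, 3.02 and 3.21 on day 9. At day 6 the WT libraries stood at 4.97 to 5.43 kb and the DKO libraries at 0.970 to 3.09 kb, a log2 difference of -1.39 ± 0.29 (SE) with a limma adjusted p of 0.00144. After scaling it was -0.49 ± 0.17 with a limma adjusted p of 0.0272, and on the scaled kb the libraries overlapped. At day 0 the direction was the opposite, with all DKO libraries above WT. Acox2, the bile acid branched-chain oxidase, held 0.160 and 0.169 kb in 2 WT libraries of day 6 and 0.229 and 0.303 kb in 1 DKO library each of days 6 and 9, and 0 kb in the other 20.

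The bifunctional enzymes carry the middle steps of the peroxisomal spiral. Ehhadh, the L-bifunctional enzyme (chr16:21761287-21787807, minus strand), held 0.5, 0.449 and 0.662 kb on day 0, 0.661, 0.841 and 0.303 on day 3, 1.18, 0.56 and 0.941 on day 6 and 0.959, 1.15 and 1.24 on day 9 in WT. In DKO Ehhadh held 0.809, 1.27 and 0.726 kb on day 0, 0.198, 0.461 and 0.204 on day 3, 1.42, 1.35 and 0.876 on day 6 and 2.31, 1.77 and 2.74 on day 9. DKO was above WT at days 0 and 9 with no overlap. Hsd17b4, the D-bifunctional enzyme (chr18:50128201-50196269, plus strand), held 0.919, 0.771 and 0.652 kb on day 0, 0.919, 0.662 and 0.753 on day 3, 2.22, 2.01 and 2.42 on day 6 and 2.76, 3.63 and 3.31 on day 9 in WT. In DKO Hsd17b4 held 0.953, 2.5 and 1.13 kb on day 0, 0.689, 0.756 and 0.882 on day 3, 3.19, 2.61 and 1.39 on day 6 and 5.6, 5 and 4.49 on day 9. It had the lowest unadjusted p of the members for genotype over the 4 days, 0.0138 in the exact permutation test, with a mean difference of 0.681 kb and an adjusted p of 0.349. Its rise from day 0 was 4.14-fold in WT and 3.29-fold in DKO.

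The peroxisomal thiolases Acaa1a and Acaa1b are close copies on chromosome 9, and reads could be split between them. Acaa1a (chr9:119339676-119350299, plus strand), whose window holds the start of Myd88, held 4.58, 4.07 and 4.45 kb on day 0, 4.53, 3.92 and 4.06 on day 3, 3.72, 4.3 and 4.25 on day 6 and 3.33, 3.76 and 3.42 on day 9 in WT. In DKO Acaa1a held 4.58, 8.1 and 5.9 kb on day 0, 3.16, 3.84 and 3.27 on day 3, 3.5, 3.43 and 3 on day 6 and 3.86, 4.08 and 4.18 on day 9. It fell by 1.51 kb between days 0 and 9, by 1.03 kb without DKO day 0 replicate 2 (exact permutation test, adjusted p 0.0156), and missed the threshold among the 20000 strongest peaks (adjusted p 0.402 in the same test).

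Acaa1b (chr9:119148023-119157093, minus strand) was off and then on. WT Acaa1b held no peak on day 0, no peak on day 3, 0.671, 0.458 and 0.805 on day 6 and 0.652, 1.49 and 1.17 on day 9. DKO Acaa1b held no peak on day 0, no peak on day 3, 0.164, 0.193 and 0 on day 6 and 2.8, 2.59 and 2.19 on day 9. No library of day 0 or 3 had a peak there. DKO was below WT at day 6 and above at day 9, both without overlap, and its genotype by day term had the lowest adjusted p of the members (0.00304, limma F-test).

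Crot, the peroxisomal carnitine octanoyltransferase (chr5:8966033-8997324, minus strand), held 1.5, 1.71 and 1.49 kb on day 0, 1.47, 1.26 and 1.21 on day 3, 1.82, 1.88 and 1.66 on day 6 and 1.65, 1.91 and 1.9 on day 9 in WT. In DKO Crot held 1.65, 2.07 and 1.87 kb on day 0, 1.29, 1.69 and 1.41 on day 3, 1.83, 2.61 and 1.74 on day 6 and 2.28, 1.69 and 1.97 on day 9. Its genotypes overlapped at every day, and its mean difference over the 4 days was 0.218 kb (exact permutation test, p 0.0221, adjusted p 0.386).

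Thioesterases release free fatty acids from coenzyme A. Acot1 and Acot2, the cytosolic and mitochondrial forms, are near-identical neighbours on chromosome 12 whose reads cannot always be told apart. Acot2 (chr12:83987861-83993873, plus strand) also shares its window with the start of Heatr4, and held 1.43, 1.62 and 1.19 kb on day 0, 0.735, 0.841 and 0.496 on day 3, 0.973, 1.19 and 1.22 on day 6 and 1.27, 1.2 and 1.56 on day 9 in WT. In DKO Acot2 held 1.11, 1.91 and 1.07 kb on day 0, 0.268, 0.528 and 0.858 on day 3, 0.933, 1.21 and 0.573 on day 6 and 2.27, 2.07 and 1.95 on day 9. Its day 3 libraries were all below those of day 0 in both genotypes, and at day 9 the DKO libraries were all above WT. Acot1 (chr12:84009490-84018371, plus strand) held peaks in 8 libraries, of 0.155 to 0.501 kb, all at days 0 and 9.

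Acot11, a thioesterase known from brown fat (chr4:106744555-106804998, minus strand), held 2.87, 3.43 and 2.75 kb on day 0, 1.76, 1.45 and 0.331 on day 3, 0.932, 1.24 and 0.798 on day 6 and 1.23, 1.81 and 1.22 on day 9 in WT. In DKO Acot11 held 1.67, 4.15 and 2.78 kb on day 0, 0.786, 0.306 and 0.967 on day 3, 0, 0.41 and 0.309 on day 6 and 1.9, 2.11 and 1.89 on day 9. DKO replicate 1 of day 6 was the 1 library with no peak, DKO was below WT at day 6 and above at day 9 without overlap, and its change from day 0 to day 9 missed the threshold (-1.25 kb, exact permutation test, adjusted p 0.0584) but passed on scaled kb (adjusted p 0.0148 in the same test). Acot13, whose window holds the start of Tdp2, rose by 2.05 kb.

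Pdk4, the kinase that shuts pyruvate dehydrogenase and so shifts cells from glucose to fat (chr6:5483351-5496309, minus strand), held 0.482, 0.325 and 0.926 kb on day 0, 0.704, 0.845 and 0.328 on day 3, 1.8, 1.45 and 1.15 on day 6 and 1.47, 2.22 and 1.31 on day 9 in WT. In DKO Pdk4 held 0.428, 0.837 and 0.24 kb on day 0, 0.287, 0.587 and 0.447 on day 3, 1.24, 0.952 and 0.711 on day 6 and 3.69, 2.69 and 3.25 on day 9. It rose 2.88-fold in WT and 6.40-fold in DKO, with all DKO libraries of day 9 above WT. A test of the difference between the rises, the genotype by day 9 against day 0 term of limma, gave 1.13 on the log2 scale with an adjusted p of 0.852.

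Of the length added by day 9, more lay outside promoters than in them. Within 2 kb of the gene starts the members summed to 49.0 kb at WT day 0 and 69.7 kb at WT day 9, and the rest of the windows to 27.4 and 55.0 kb. In DKO the promoter part was 59.9 and 80.9 kb and the rest 40.2 and 92.4 kb. The windows ran from 10.2 to 77.5 kb, so the promoter part was the shorter stretch of every window. The promoter shared by Hadha and Hadhb entered the sum for both genes. The same split of all genes is not given here, so it is open whether the members differ from them. When peaks of all libraries were joined, 286 of 169134 merged regions fell in member windows, and 42 of the 286 were called in all 24 libraries, beside 9.09% of all regions. A further 116 were called in only 1 or 2 libraries.

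Regions absent from all 6 libraries of day 0 and called in all 6 of day 9 numbered 21 in 14 members, which is 7.34% of the member regions beside 2.54% of all. The reverse kind numbered 1, in the Acsl3 window over an exon of Utp14b, which is 0.35% beside 1.29%. Only 1 of the 21 gained regions had its summit within 1 kb of the gene start. That count was largely set in advance, since 32 members held a peak within 1 kb of an annotated start in all 24 libraries. The share of all gained regions that lay so near a start is not given here. The 200 bases round the summit of 6 gained regions are printed, in build GRCm38 (mm10), plus strand, 5′ to 3′. Eci1, Acadm, Crat and Decr1 were among the gained regions with the strongest ranks at day 9, as were Hadhb and Acaa1b, not printed. Acsl1 and Acot13 were printed for their motif matches. The Eci1 region lay in an intron, 2313 bp into the gene (chr17:24428854-24429053). The Acadm region lay between genes, at -3428 bp from the gene start (chr3:153947960-153948159). The Crat region (chr2:30410085-30410284) and the Decr1 region (chr4:15938503-15938702) lay in introns, 5628 and 6904 bp into their genes. The Acsl1 region (chr8:46484448-46484647) lay in an intron, 13511 bp into the gene. The Acot13 region was called in 11 libraries, 2 of 3 in WT day 6 and all 9 others of days 6 and 9, in an intron 5261 bp into the gene (chr13:24826179-24826378). Capitals mark a motif match on either strand, a PPAR-type repeat in Acsl1 and an ERR-type site in Acot13. Each was the only match of its kind in the 21 gained regions. That is 4.76%, beside 0.466% of all gained regions for the looser PPAR-type repeat and 1.12% for the ERR site.
Eci1: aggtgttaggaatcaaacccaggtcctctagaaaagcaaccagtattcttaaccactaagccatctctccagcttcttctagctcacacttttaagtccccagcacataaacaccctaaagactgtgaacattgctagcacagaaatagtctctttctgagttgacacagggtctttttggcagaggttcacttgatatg
Acadm: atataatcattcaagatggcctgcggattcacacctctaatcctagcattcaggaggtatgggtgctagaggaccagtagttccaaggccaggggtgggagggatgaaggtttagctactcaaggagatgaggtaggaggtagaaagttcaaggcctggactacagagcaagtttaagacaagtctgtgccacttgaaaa
Crat: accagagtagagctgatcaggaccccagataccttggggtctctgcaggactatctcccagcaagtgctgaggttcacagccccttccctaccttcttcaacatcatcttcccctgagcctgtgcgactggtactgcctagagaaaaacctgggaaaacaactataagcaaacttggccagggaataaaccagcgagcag
Decr1: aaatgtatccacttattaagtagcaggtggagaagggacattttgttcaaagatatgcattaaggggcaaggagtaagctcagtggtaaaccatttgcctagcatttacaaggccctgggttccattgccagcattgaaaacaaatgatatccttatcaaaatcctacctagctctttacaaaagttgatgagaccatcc
Acsl1: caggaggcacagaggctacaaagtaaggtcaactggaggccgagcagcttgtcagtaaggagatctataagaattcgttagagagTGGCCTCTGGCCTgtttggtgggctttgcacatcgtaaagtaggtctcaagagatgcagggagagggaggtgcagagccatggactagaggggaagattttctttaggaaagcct
Acot13: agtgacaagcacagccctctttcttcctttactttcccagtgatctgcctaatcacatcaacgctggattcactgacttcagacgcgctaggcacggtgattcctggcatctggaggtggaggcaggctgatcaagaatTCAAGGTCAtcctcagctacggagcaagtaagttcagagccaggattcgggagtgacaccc

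Motif matches were few. The PPAR-type element DR1, a direct repeat of AGGTCA with any 1 base between, was in 0 of the 286 member regions (200 bases round the summit, both strands). The looser form with repeats of AGGNCA, which contains it, was in 7, in the windows of Acaa1b, Acads, Acsl1 and Cpt1a, which is 2.45% beside 0.432% of all regions, and in 0 of 39 member promoters (250 bases before to 50 after the start, RefSeq) beside 0.381% of all 32851 promoters. The ERR site TNAAGGTCA was in 4 member regions, 1.4% beside 1.31%, and in 1 member promoter, that of Acsl6, 2.56% beside 1.28%. The C/EBP palindrome TTGCGCAA was in 0 member regions and 0 member promoters, beside 0.0213% and 0.183%. The promoter table covered 33 of the 40 members.

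By genotype, 0 of the 124 member regions that could be tested (called in 3 to 21 libraries) passed, with a lowest adjusted p of 0.455 in the exact conditional permutation test, and 0 of all 71175 passed. At an unadjusted p under 0.05, 4 member regions had fewer DKO calls and 0 had more, beside 4.82% and 0.455% of all regions. The smallest p, 0.0025 in the exact permutation test, was an intron region of Acot11, 26894 bp into the gene, called in 3 of 3 WT libraries at every day and in 2, 0, 0 and 3 DKO libraries at days 0, 3, 6 and 9. An intron region of Acsl4, 5830 bp into the gene, was a peak in 7 WT libraries out of 12 and in no DKO library (exact permutation test, p 0.005). Another Acsl4 intron region, 19063 bp in, had p 0.025, and a region 52904 bp into Abcd3 p 0.034, in the same exact test. Crat at 14928 bp and Hadha at 18173 bp, called in more DKO than WT libraries, each had p 0.05 in that exact test.

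At day 9, 10 member regions were called in 3 of 3 DKO and 0 of 3 WT libraries, 3.5% beside 1.46% of all regions. They lay in Cpt1b, Crat with 2, Acadvl, Hadha with 2, Abcd2, Ehhadh and Hsd17b4 with 2. The opposite pattern at day 6, called in 3 WT and 0 DKO libraries, held 6 member regions, 2.1% beside 4.55%, in Acsl4 with 2, Cpt1a, Abcd2, Acox3 and Acot11. A Hadha intron region, 18173 bp into the gene (chr5:30136889-30137088), and the Acot11 intron region (chr4:106778004-106778203) are printed as the clearest regions of these patterns, in build GRCm38, plus strand, 5′ to 3′, with no capitals since no motif was marked.
Hadha: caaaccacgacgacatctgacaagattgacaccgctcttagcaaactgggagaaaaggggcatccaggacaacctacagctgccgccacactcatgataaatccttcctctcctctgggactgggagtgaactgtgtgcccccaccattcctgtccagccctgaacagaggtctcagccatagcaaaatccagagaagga
Acot11: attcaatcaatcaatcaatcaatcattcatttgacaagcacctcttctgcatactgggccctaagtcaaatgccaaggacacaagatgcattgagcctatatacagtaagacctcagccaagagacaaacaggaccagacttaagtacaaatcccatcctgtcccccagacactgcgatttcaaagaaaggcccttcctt

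Hadha and Acsl1 show where the day 9 length lay. Outside 2 kb of its start Hadha held 0 kb in WT at day 0, 1.08 kb in WT at day 9 and 4.47 kb in DKO at day 9. Acsl1 held 3.37 kb near its start and 8.76 kb elsewhere in WT at day 9, and 3.31 and 17.8 kb in DKO. Its start region was called in all 24 libraries, and regions 8725, 13511 and 22007 bp into the gene were absent from the 12 libraries of days 0 and 3 and present in the 12 of days 6 and 9. A region 26569 bp into Acsl1 was called in all 6 libraries of day 0, in 0 of day 3, and again from day 6 on.

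Other genes of the pathway were read in the same way. Of 29 further genes, 28 could be tested, and Slc27a2 held no peak. Between days 0 and 9, 11 rose and 1, Acad12, fell, beside 16.4% and 14.8% of all genes. These counts came from the same exact permutation test at an adjusted p under 0.05. Scp2, the peroxisomal sterol carrier thiolase, went from 2.79 to 13.8 kb on average in WT and from 4.19 to 23.5 kb in DKO. Acacb, which makes the malonyl-CoA that inhibits Cpt1, went from 1.37 to 7.53 kb and from 1.13 to 11.6 kb. Nudt7, a peroxisomal coenzyme A diphosphatase, went from 0.932 to 2.27 kb and from 1.02 to 6.49 kb. DKO was above WT without overlap at 3 of the 28 at day 0 and 14 at day 9, beside 18.4% and 29.3% of all genes, and below at 5 at day 3 and 8 at day 6, beside 10.8% and 59.6%. Over the 4 days 0 of the 28 passed in kb in either direction. In best rank Acacb passed, weaker in DKO by 32.7 percentile points (exact permutation test, p 1.25e-05, adjusted p 0.00825).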

How the data were processed

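H3K27ac ChIP-seq lists of 24 libraries were analysed, and the 16 input libraries were not analysed here. According to the submitters' notes and the study's methods, the authors ran bcl2fastq 2.17, cutadapt 1.18, BWA 07.17 (single-end reads, mm10) and MACS2 2.1.1.20160309, which called peaks in each library without pooling. Each deposited list gives per peak a fold enrichment over local background and the −log10 p-value and −log10 q-value. Which input served as control is not given in the sources used here. Calls depend on depth and on that control.

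Peaks were summed over gene windows (GENCODE annotation of GRCm38, protein-coding genes, 5 kb upstream). A library without a peak counted as 0 kb and as rank percentile 100. Tests were the exact permutation tests described, and limma 3.58.1 (R 4.3.3) on log2(kb + 0.1), with Benjamini-Hochberg adjustment over 15183 genes and a threshold of 0.05. Python 3.11.15, numpy 2.4.6, pandas 2.3.3, scipy 1.17.1 and matplotlib 3.10.9 were used, and the scripts were tested on simulated data. Depth was recovered from fold and −log10 p as whole reads at the summits.

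Members, roles, lists and tests were chosen with earlier results of these data known. Genes described in every library were 10 core genes (Cpt1a, Cpt1b, Cpt2, Acadm, Acadvl, Hadha, Ehhadh, Acsl1, Pdk4 and Acot2), the 4 with the smallest p for genotype, up to 3 per day and direction without overlap, the 5 with the largest rise and the 5 with the largest fall from day 0 to day 9, and those with few peaks. Other members are named by count. Windows of 13 members hold the start of another protein-coding gene. p-values measure the spread between the libraries. Sequences and promoters came from GRCm38 and RefSeq.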

Additional observations from a re-analysis of the deposited data

Results flagged for a closer look

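For 11 of 39 members the difference between DKO and WT in kb under peaks changed with the day (limma F-test of genotype by day on log2(kb + 0.1), Benjamini-Hochberg adjusted over all genes). This is a smaller share than the 33.7% of all genes tested, so the members did not stand out in this count. The adjusted p was 0.00304 for Acaa1b, 0.00635 for Hadha, 0.00871 for Acox3, 0.0216 for Cpt1a, 0.0220 for Acsl5, 0.0261 for Acaa1a, 0.0274 for Ehhadh, 0.0326 for Acadvl, 0.0367 for Acsl4, 0.0414 for Slc25a20 and 0.0459 for Hadhb. Acaa1b, Cpt1a and Acaa1a lay below WT in all DKO libraries of day 6 and above it in all of day 9, while Acox3 and Acadvl lay above at day 0 and below at day 6. Hadha, Hadhb and Ehhadh lay above at days 0 and 9 without a separation between them. The covered length of the libraries moved the same way, with DKO below WT at day 6 and above at day 9. After scaling to covered length, 17 members passed, beside 28.1% of all genes. Of the 11, only Acaa1b (adjusted p 0.0110), Hadha (0.0215), Ehhadh (0.00542) and Slc25a20 (0.0463) still passed that limma F-test, and Acox3, Hadhb, Acaa1a, Acsl5, Acsl4, Cpt1a and Acadvl did not, with adjusted p of 0.0619 to 0.822.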

How the results depend on the processing

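Peak lists carry no counts per sample, so width depends on depth, fragment size and the control of each library, and a difference within that spread was not detectable. Over up to 16 alternatives each, the signed differences of 25 named members kept their direction and side of the threshold in 346 cases, passed it in 9, all on kb scaled to covered length, and changed sign in 40, none of which passed. The limma fit on scaled kb was counted apart, and it also passed Crot and Abcd2, with adjusted p of 0.0134 and 0.0289. The cause of these changes was not tested unless given.

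Changes of sign of the DKO minus WT mean over 4 days were these. Within 2 kb either side of the gene start, Abcd2 had -0.183, Acaa2 0.00142, Acadvl 0.174, Acot11 0.00383, Acox3 0.0793 and Acsl3 -0.0793 kb. Among 20000 peaks per library, Acot11 had 0.0317, Cpt1a 0.539, Cpt2 0.0640 and Hadh -0.0246 kb. Over the gene span alone, Acadvl had 0.156 and Cpt2 0.0258 kb. Scaled to covered length, Acaa2 had 0.488, Acadvl 0.0297, Cpt1a 0.246 and Cpt2 0.357 kb. In limma, Abcd2 had -0.0158, Acaa1b -0.175, Acot2 -0.0419 and Pdk4 -0.0547 on the log2 scale. At −log10 q of at least 5, Cpt2 had 0.00700 kb. With 250 bp either side of the summits, Abcd2 had -0.454, Acaa1a -0.202, Acaa1b -0.0655, Acadvl 0.0163, Acot2 -0.0946, Crot -0.0873 and Pdk4 -0.0793 kb. Over the settings that left out a replicate number, DKO day 0 replicate 2, DKO day 6 replicate 3 or WT day 3 replicate 3, Abcd2 ranged from -0.241 to 0.271, Acaa1a from -0.111 to 0.446, Acaa2 from -0.136 to 0.0612, Acox2 from -0.0211 to 0.0465, Cpt1a from -0.779 to 0.150 and Cpt2 from -0.126 to 0.0316 kb.

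Counts of members moved as follows, each beside its share of all genes tested in that setting. Within 2 kb of the start, DKO was above WT at 2 members at day 3 (1.11%) and 13 at day 9 (23.3%). Among 20000 peaks, 9 rose (4.66%) and 1 fell (6.04%) by day 9, and DKO was above at 1 (1.33%) and below at 8 (36.2%) at day 6. Over the gene span, day 3 gave 0 above (1.23%) and 2 below (11.3%), and 1 member had a stronger rank in DKO over 4 days (0.144%). At −log10 q of at least 5, day 3 gave 0 above (0.895%) and 2 below (10.2%). With 250 bp either side of the summits, DKO was above at 0, 2, 2 and 10 members at days 0, 3, 6 and 9 (1.5%, 2.46%, 2.14% and 10.6%) and below at 1, 2, 5 and 3 (7.22%, 6.57%, 23.5% and 2.82%), and 1 member fell by day 9 (4.11%). Scaled to covered length, 12 members were higher (9.19%) and 1 lower (5.7%) over 4 days, 5 fell by day 9 (21.9%), and DKO was above at 1, 3, 29 and 13 members (10.9%, 12.2%, 37.8% and 13.4%) and below at 5, 2, 1 and 3 (10.6%, 7.73%, 14.4% and 13.5%). limma on scaled kb gave 16 higher (13.4%) and 1 lower (9.58%) over 4 days, above 1, 26 and 3 at days 0, 6 and 9 (1.69%, 32% and 1.55%), and below 0 at day 3 (2.85%) and 3 at day 6 (14.8%). limma at each day gave above 1, 0 and 2 at days 0, 3 and 9 (0.981%, 0.0263% and 0.896%) and below 0 and 9 at days 3 and 6 (0.547% and 41.7%). Without DKO day 0 replicate 2, 5 were below at day 0 (9.38%) and 27 rose by day 9 (30.9%). Without WT day 3 replicate 3, 16 were below at day 3 (51.5%). Without DKO day 6 replicate 3, a setting chosen after seeing the data like the limma fits at single days and on scaled kb, 10 were above at day 6 (2.12%). Leaving out one replicate number at a time gave above 14 to 21 at day 0 (28.6% to 47%), 1 to 4 at day 3 (1.75% to 5.73%) and 0 to 11 at day 6 (0.198% to 3.81%), and below 0 to 6 at day 0 (1.38% to 11.7%), 4 to 18 at day 3 (13.1% to 54%) and 0 to 5 at day 9 (3.89% to 14.4%), and 0 members rose or fell by day 9, since the smallest p was then 0.0556. Mean members with a peak fell to 31.7, 32.7, 32.7 and 33.7 in WT and 32.3, 30.7, 34.0 and 35.0 in DKO among 20000 peaks, to 35.3, 34.7 and 36.3 in WT and 36.3, 34.0 and 35.3 in DKO at days 0, 3 and 6 within 2 kb of the start, to 35.0, 35.0 and 37.7 in WT at days 0, 3 and 9 and 35.3 and 35.0 in DKO at days 0 and 3 over the gene span, and to 35.7 and 37.3 in WT at days 3 and 9 and 36.0, 35.7 and 36.0 in DKO at days 0, 3 and 6 at −log10 q of at least 5.

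The replicate block used the shared replicate numbers. The deviations of same-numbered WT and DKO libraries correlated between -0.837 and 0.898, and 4 of 12 DKO libraries correlated best with the WT library of their number. No pairing by number was seen, but these values cannot tell whether same-numbered cultures were prepared together. With the replicate block, 0 members rose or fell by day 9 because the smallest p was 0.0312, and 0 were higher or lower in DKO over 4 days among 4096 relabellings.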
